A study of Homo sapiens with 12 samples.

Results

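The genes described here are 43 named parts of the DNA replication machinery, chosen by symbol: origin licensing factors, the replicative helicase, polymerases, the sliding clamp and its loader, nucleotide supply and chromatin assembly. All 43 had a value in every deposited comparison, out of 18609 genes with a value in at least 1. RNA came from 12 cultures of the chondrocyte line C28/I2, human cells immortalised for culture, with 3 in each of 4 groups harvested after 48 h. The SDF1_SKHS group received 50 nM SDF-1a, the chemokine also called CXCL12, with 1% of the herbal formula SKHS. The SDF1_AS4 group received 50 nM SDF-1a with 10 μM Astragaloside IV, a saponin of Astragalus. The SDF1 group received 50 nM SDF-1a alone, and the DMSO group received 0.5% DMSO. The labels name DMSO in that group alone and give no vehicle for either product, so solvent and agent cannot be told apart. Every culture is of 1 cell line, and no label says that cultures of a group were grown separately, so each p-value covers the spread among these samples alone, which may be technical.

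Replication starts at origins that are licensed in G1 phase, when the origin recognition complex, CDC6 and CDT1 load rings of MCM2 to MCM7 onto DNA. In S phase the ring is joined by CDC45 and the GINS complex to form the active helicase, and the polymerases, the clamp PCNA and the ligase copy both strands. Transcription of many of these genes is driven by E2F factors, which the retinoblastoma protein holds back in cells that are not cycling. Whether that control is intact in this immortalised line was not tested. Cultured chondrocyte lines divide, whereas chondrocytes of adult cartilage rarely do.

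Upstream sequences of 5 members are shown because they hold an E2F motif, a feature that the choice of genes did not use, and they were picked after the values were seen. The windows are the 250 bases before the RefSeq start (GRCh38.p14), and capitals mark an E2F site, TTTCCCGC, TTTCGCGC, TTTGCCGC or TTTGGCGC, on either strand. POLE and CDT1 had the largest and the third largest fall with SDF-1a. LIG1 and POLA2 had the largest and the third largest with SKHS, and MCM6 is a licensing gene that rose with SDF-1a. The genes with the second and the fourth largest falls held no such site in any window searched. They were POLD1 and CHAF1A with SDF-1a and RRM2 and FEN1 with SKHS.
POLE, chr12:132687343-132687592, minus strand: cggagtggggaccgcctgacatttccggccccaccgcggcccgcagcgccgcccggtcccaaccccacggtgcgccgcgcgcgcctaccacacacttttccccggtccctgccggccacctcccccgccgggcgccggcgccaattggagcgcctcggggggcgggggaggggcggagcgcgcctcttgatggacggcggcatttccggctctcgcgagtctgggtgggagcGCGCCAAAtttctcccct
CDT1, chr16:88803539-88803788, plus strand: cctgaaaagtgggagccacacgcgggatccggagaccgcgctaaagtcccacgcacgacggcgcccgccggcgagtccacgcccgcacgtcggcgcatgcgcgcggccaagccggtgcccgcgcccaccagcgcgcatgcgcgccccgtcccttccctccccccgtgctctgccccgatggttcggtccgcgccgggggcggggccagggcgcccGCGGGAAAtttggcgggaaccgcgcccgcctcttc
LIG1, chr19:48170345-48170594, minus strand: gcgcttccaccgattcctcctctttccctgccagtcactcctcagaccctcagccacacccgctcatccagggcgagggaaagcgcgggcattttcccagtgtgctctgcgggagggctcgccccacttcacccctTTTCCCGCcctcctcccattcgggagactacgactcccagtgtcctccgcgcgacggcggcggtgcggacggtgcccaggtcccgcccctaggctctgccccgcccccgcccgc
POLA2, chr11:65261712-65261961, plus strand: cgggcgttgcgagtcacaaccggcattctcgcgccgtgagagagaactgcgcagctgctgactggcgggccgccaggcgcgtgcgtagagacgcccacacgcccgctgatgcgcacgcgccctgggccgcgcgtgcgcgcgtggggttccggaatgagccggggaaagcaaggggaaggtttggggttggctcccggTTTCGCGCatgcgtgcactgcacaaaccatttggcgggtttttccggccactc
MCM6, chr2:135876444-135876693, minus strand: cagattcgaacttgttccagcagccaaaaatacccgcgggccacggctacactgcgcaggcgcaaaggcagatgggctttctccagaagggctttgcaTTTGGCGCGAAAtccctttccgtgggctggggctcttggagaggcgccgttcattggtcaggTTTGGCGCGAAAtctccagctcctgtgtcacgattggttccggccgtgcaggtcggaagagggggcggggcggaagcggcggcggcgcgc
The site of POLE ended 11 bases before the start and that of CDT1 28 bases before it. The MCM6 window held 4 sites, which form 2 pairs that overlap on opposite strands. Of 37 members with a window in the RefSeq table, 13 held at least 1 such site (35.1%), against 694 of 14374 genes with a value and a window (4.83%). The members without a window were MCM4, MCM5, GINS4, POLD3, RPA2 and RPA3. The median log2 fold change of SDF1_SKHS over SDF1 was -0.78 for the 13 members with a site and -0.74 for the 24 without one. For SDF1 over DMSO these medians were -0.35 and -0.23. A match to these letters is a description and was not tested as a binding site. Bases past the start and variants of the letters were not searched, so members without a match may still hold an E2F site. The medians therefore do not compare genes with and without E2F control.

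All values given for the deposited comparisons are log2 fold changes the authors computed, as deposited. The value after ± is a standard error implied by the fold change and its p-value, and a gene was called at an adjusted p under 0.05. The table holds differences between groups and no level per culture, and it gives no depth for any sample. Neither the cell type of the cultures nor the order of levels between genes could be checked. All 43 genes were measured precisely, with implied standard errors from 0.08 to 0.16 for SDF1 over DMSO, from 0.08 to 0.16 for SDF1_AS4 over SDF1 and from 0.07 to 0.18 for SDF1_SKHS over SDF1. RNA was taken from whole cultures, so fewer cells in S phase and less of a transcript per cell cannot be told apart. Transcripts of the members were 3157 nucleotides long at the median, with 48.1% GC, against 3046 nucleotides and 49.5% GC over 18408 annotated genes.

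SDF1_SKHS was set against SDF1 to see the difference with the formula, and any vehicle it brought, on top of the chemokine. The 43 members fell almost without exception. In the authors' deposited table, lower values were called for 42 of the 43 genes and higher ones for 0, where 16.7% of all 18251 genes tested were lower and 15.8% higher. Among the 12028 genes with an implied standard error up to 0.3, 24.0% were lower and 22.6% higher. That bound is looser than the members' largest standard error of 0.18. The median of the members was -0.74, a 1.67-fold lower level, against 0.00 over all genes tested. At least 2-fold lower were 11 members, against 2.82% of all genes.

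**Figure D1:**
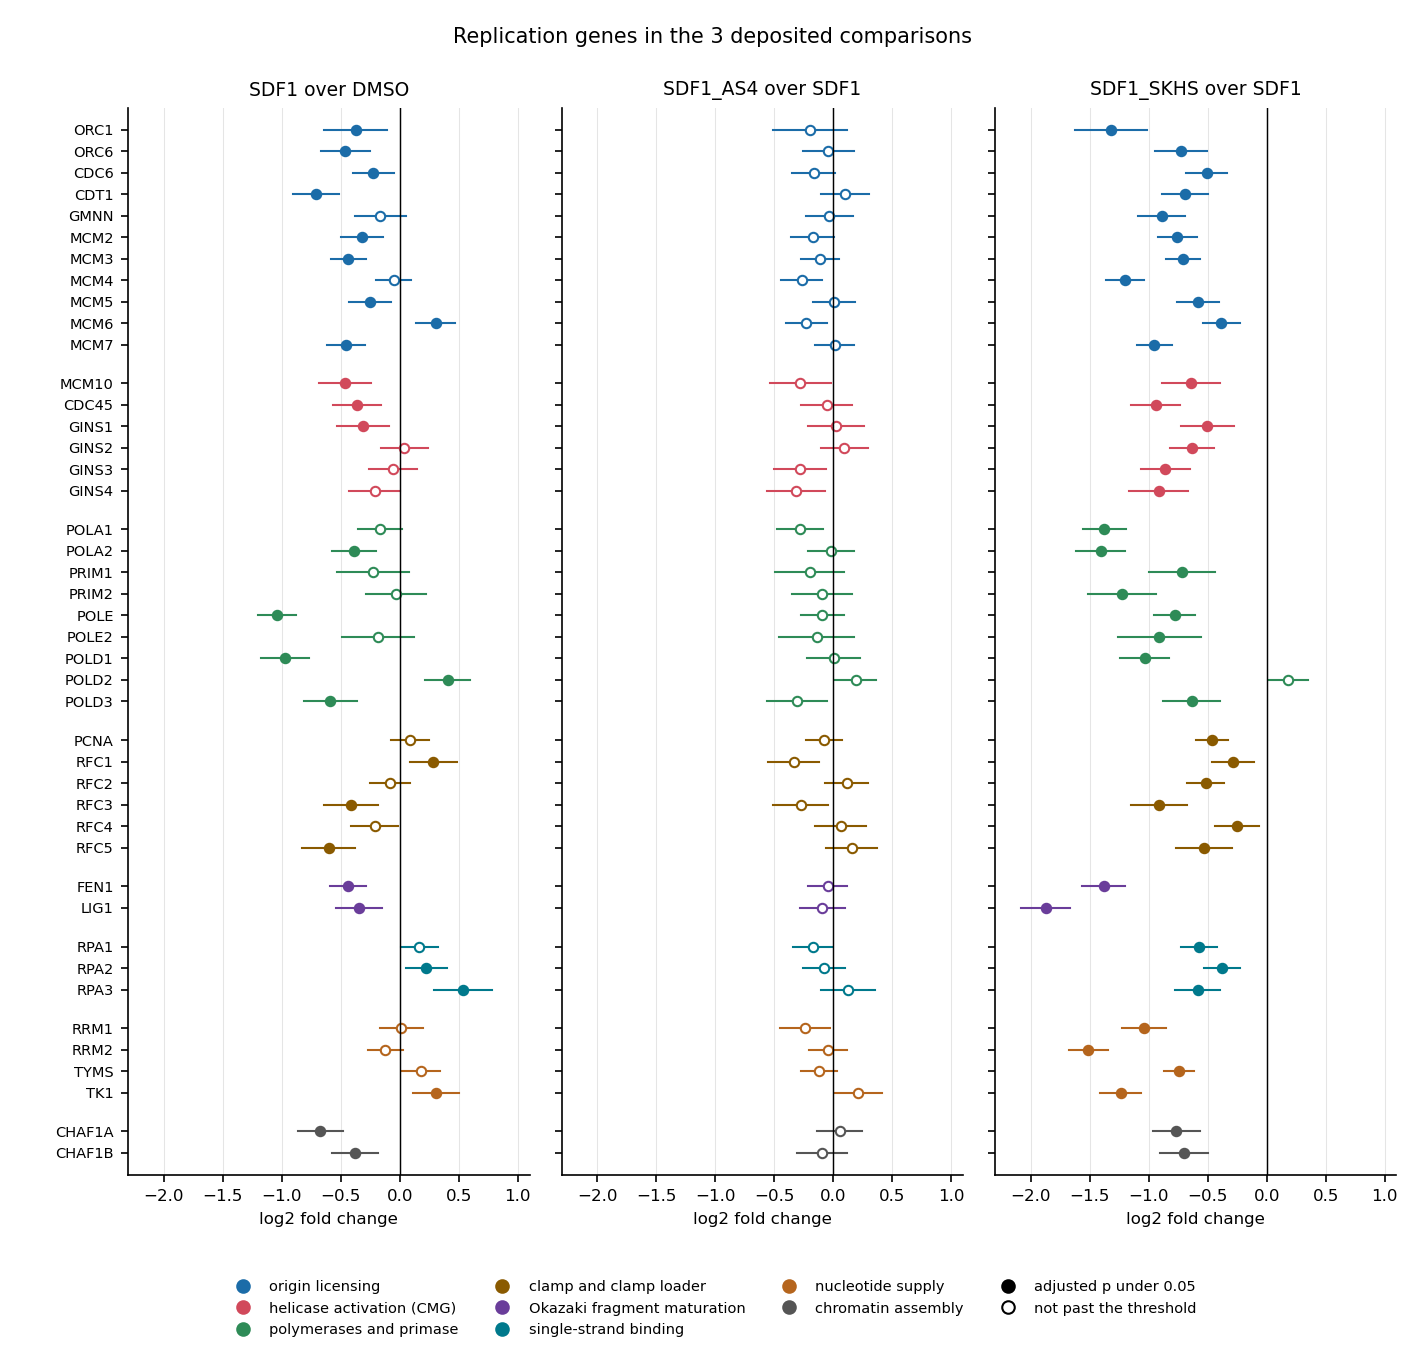
Log2 fold change of each of the 43 replication genes, grouped by role, for SDF1 over DMSO, SDF1_AS4 over SDF1 and SDF1_SKHS over SDF1. Points are values of the authors' deposited table, bars are 95% intervals from the implied standard error, and filled points passed an adjusted p of 0.05. In the SDF1_SKHS panel 42 points are filled and lie left of 0, and only POLD2 lies right of it.

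The 2 enzymes that finish the lagging strand had a median of -1.63, the lowest of the 8 roles. LIG1, the ligase that seals Okazaki fragments, fell by 1.87 ± 0.10, a 3.66-fold lower level (adjusted p = 4.06e-69). It was 403rd from the lowest of 18251 genes, a rank that also counts imprecise values. Of the 12028 genes with an implied standard error up to 0.3, the lowest 1% lay at or below -1.46. FEN1, the flap endonuclease that trims the fragments before ligation, fell by 1.38 ± 0.09 (adjusted p = 3.48e-48). LIG1 lies on chromosome 19 at 48115445 to 48170603 on the minus strand (GENCODE 29, GRCh38).

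Genes of nucleotide supply fell by a median of 1.14 on the log2 scale. RRM2, the small subunit of ribonucleotide reductase whose level normally peaks in S phase, fell by 1.51 ± 0.08 (2.85-fold lower, adjusted p = 3.14e-69). Its partner RRM1, the large catalytic subunit, fell by 1.04 ± 0.09. TK1, the thymidine kinase of S phase cells, was at -1.24 ± 0.09, and TYMS, which makes thymidylate, at -0.74 ± 0.07. All 4 members of this group were called.

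Of 9 polymerase and primase genes 8 were lower, with a median of -0.91. POLA1, the catalytic subunit of polymerase alpha, fell by 1.38 ± 0.09 and its accessory subunit POLA2 by 1.41 ± 0.11, while the primase subunits PRIM2 and PRIM1 fell by 1.22 ± 0.15 and 0.72 ± 0.14. Of the leading-strand polymerase, POLE stood at -0.78 ± 0.09 and its subunit POLE2 at -0.91 ± 0.18. Of polymerase delta, which copies the lagging strand, the catalytic POLD1 fell by 1.03 ± 0.11 and POLD3 by 0.63 ± 0.12, but the subunit POLD2 was at 0.18 ± 0.08 and was not called (adjusted p = 0.0842). The 95% interval of POLD2, from 0.02 to 0.35, lay above that of every other member.

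All 6 clamp and loader genes were lower, with a median of -0.49. PCNA, the sliding clamp, fell by 0.47 ± 0.07. RFC3, a small loader subunit, fell by 0.91 ± 0.12 and RFC1, the large subunit, by 0.29 ± 0.09, and RFC4 had the smallest called fall of the 43 at -0.25 ± 0.10 (adjusted p = 0.0297). The subunits RFC2 and RFC5 were at -0.52 ± 0.08 and -0.53 ± 0.12. The 3 subunits of RPA, which coats single-stranded DNA, were all lower, RPA1 by 0.57 ± 0.08, RPA2 by 0.38 ± 0.08 and RPA3 by 0.59 ± 0.10.

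All 11 licensing genes fell, with a median of -0.73. ORC1, the origin recognition subunit that is made anew in each cycle, fell by 1.32 ± 0.16 and ORC6 by 0.73 ± 0.11. The loader CDC6 was at -0.51 ± 0.09, its partner CDT1 at -0.69 ± 0.10 and GMNN, the inhibitor of CDT1, at -0.89 ± 0.10. Within the MCM ring the falls were unequal, from a 2.29-fold lower level of MCM4 and a log2 fall of 0.95 ± 0.08 for MCM7, through 0.76 ± 0.08 for MCM2, 0.71 ± 0.08 for MCM3 and 0.58 ± 0.09 for MCM5, to 0.38 ± 0.08 for MCM6. The 95% interval of MCM4, from -1.36 to -1.04, did not overlap that of MCM6, from -0.54 to -0.23.

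The genes that turn the loaded ring into a helicase all fell too, with a median of -0.75 over 6. CDC45 fell by 0.94 ± 0.11 and MCM10, a factor of helicase activation, by 0.64 ± 0.13. The 4 GINS subunits fell by 0.92 ± 0.13 (GINS4), 0.86 ± 0.11 (GINS3), 0.63 ± 0.09 (GINS2) and 0.50 ± 0.11 (GINS1). The chromatin assembly subunits CHAF1A and CHAF1B, which place histones on new DNA, were lower by 0.76 ± 0.10 and 0.70 ± 0.10.

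Genes around this machinery were counted on lists of their own. Of 48 other replication genes, 29 were lower and 5 higher with SKHS, with a median of -0.58. Among the origin firing factors 7 of 12 were lower, led by DBF4 (-1.60 ± 0.09), the activator of the firing kinase CDC7 (-1.17 ± 0.14), RECQL4 (-1.40 ± 0.10) and TICRR (-1.76 ± 0.15). Of 18 other fork factors 11 were lower and 1 higher, led by TIMELESS (-1.19 ± 0.09), MCM8 (-1.12 ± 0.10), the PCNA partner PCLAF (-1.08 ± 0.09) and the checkpoint adaptor CLSPN (-1.19 ± 0.11). Of 6 replication-coupled chromatin factors 5 were lower, among them the histone chaperone ASF1B (-1.18 ± 0.09) and the maintenance methylation factors UHRF1 (-1.26 ± 0.11) and DNMT1 (-0.76 ± 0.07). Of 8 other nucleotide genes 4 were lower and 2 higher.

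Regulators of the cycle were counted in the authors' deposited table as well. Of 11 G1/S regulators 8 were lower and 1 higher with SKHS, including CCNE2, the gene of cyclin E2 (-1.84 ± 0.21), RBL1 (-0.83 ± 0.12), E2F1 (-0.70 ± 0.10) and the phosphatase CDC25A (-0.97 ± 0.14). All 18 mitosis genes were lower, with a median of -1.57, against -0.74 for the 43 replication genes. Of 7 CDK inhibitors 2 were higher and 4 lower, with CDKN1A, which encodes p21, at 1.69 ± 0.07 and CDKN2C at -1.63 ± 0.11. The part of these genes in the fall of the replication genes was not tested.

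**Figure D2:**
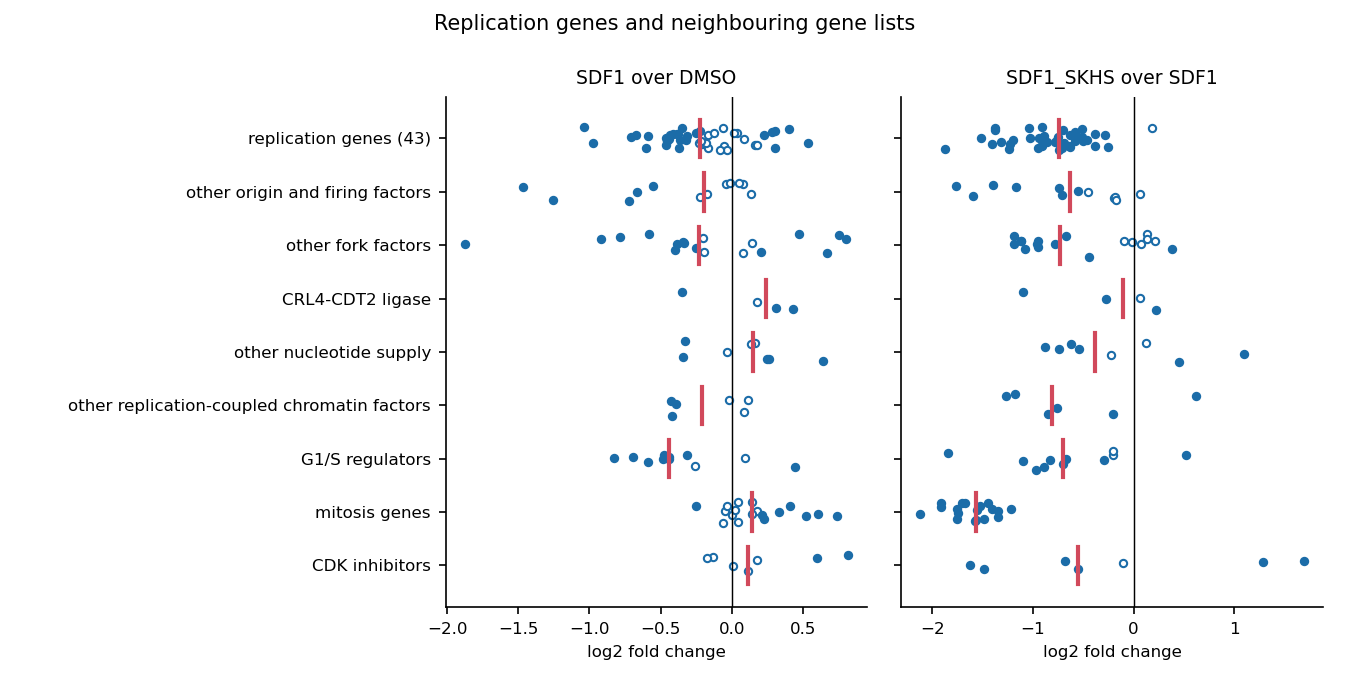
Log2 fold changes of the 43 replication genes and of 8 other lists, for SDF1 over DMSO and for SDF1_SKHS over SDF1, from the authors' deposited table. Each point is a gene, filled at an adjusted p under 0.05, vertical position within a row is random, and red bars are medians. With SKHS the mitosis genes have a median of -1.57 and the replication genes one of -0.74, while with SDF-1a the mitosis genes have 0.14 and the replication genes -0.22.

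The 42 calls for SKHS all held with the trends of transcript length and GC content removed. When p-values were taken from a t distribution (4 degrees of freedom), 30 of the 42 held. The share of all genes called under these other settings was not counted, here or below.

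SDF1 was set against DMSO next, a comparison that cannot separate the chemokine from the solvent named for the DMSO group alone. Replication genes were mixed, with more falls than rises. The authors' deposited table called 21 of the 43 lower (48.8%) and 6 higher (14.0%), where 17.5% of all 18162 genes tested were lower and 17.2% higher. Among the 11982 genes with an implied standard error up to 0.3, 23.4% were lower and 25.4% higher. The median of the members was -0.22, against -0.01 over all genes tested, and 1 member, POLE, was at least 2-fold lower, against 4.79% of all genes.

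POLE and POLD1 had the largest falls of the 43. POLE, the leading-strand polymerase, fell by 1.04 ± 0.08 (2.06-fold lower, adjusted p = 5.06e-34) and POLD1, the catalytic subunit of polymerase delta, by 0.97 ± 0.10 (adjusted p = 6.97e-19). The accessory subunits POLD3 and POLA2 were lower too: POLD3 fell by 0.59 ± 0.11 and POLA2 by 0.38 ± 0.10. POLD2 rose by 0.40 ± 0.10, and its 95% interval from 0.21 to 0.59 did not overlap that of POLD1, from -1.18 to -0.77. The catalytic POLA1 (-0.17 ± 0.10), the accessory POLE2 (-0.18 ± 0.16) and the primase subunits PRIM1 (-0.23 ± 0.15) and PRIM2 (-0.03 ± 0.13) were not called.

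Licensing genes were lower in 8 of 11 cases. CDT1 stood at -0.71 with an adjusted p of 1.93e-11, and ORC6 fell by 0.46 ± 0.11, ORC1 by 0.37 ± 0.14 and CDC6 by 0.22 ± 0.09. In the MCM ring, MCM7 fell by 0.46 ± 0.08, MCM3 by 0.44 ± 0.08, MCM2 by 0.32 ± 0.09 and MCM5 by 0.25 ± 0.09. MCM4 stayed at -0.05 ± 0.08, and MCM6 rose by 0.30 ± 0.09 (adjusted p = 0.00165). The 95% interval of MCM6, from 0.14 to 0.47, lay above those of the other 5 ring subunits. Of the helicase genes MCM10 fell by 0.46 ± 0.11, CDC45 by 0.36 ± 0.10 and GINS1 by 0.31 ± 0.11, while GINS2, GINS3 and GINS4 were not called.

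Both maturation enzymes and both chromatin assembly subunits were lower, FEN1 by 0.44 ± 0.08, LIG1 by 0.35 ± 0.10, CHAF1A by 0.68 ± 0.10 and CHAF1B by 0.38 ± 0.10. In the clamp loader RFC5 fell by 0.60 ± 0.11 and RFC3 by 0.42 ± 0.12, RFC1 rose by 0.28 ± 0.10, and PCNA was at 0.09 ± 0.08. No gene of nucleotide supply or of RPA was called lower for SDF1 over DMSO in the authors' deposited table. RPA3 rose by 0.54 ± 0.13, the largest rise of the 43, RPA2 by 0.22 ± 0.09 and TK1 by 0.31 ± 0.10. RRM1 and RRM2 were at 0.01 ± 0.09 and -0.12 ± 0.08.

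Of the 48 other replication genes 19 were lower and 10 higher with SDF-1a, and their median was -0.11. CHTF18, the core of an alternative clamp loader, was at -1.88 ± 0.10 and RECQL4 at -1.47 ± 0.10, while POLD4, the smallest subunit of polymerase delta, rose by 0.80 ± 0.10. Of 11 G1/S regulators 8 were lower and 1 higher. The lower ones included E2F8 (-0.83 ± 0.13), E2F1 (-0.59 ± 0.10) and E2F2 (-0.69 ± 0.14). The higher one was RB1 (0.44 ± 0.12), named after its value was seen. Of 18 mitosis genes 7 were higher and 1 lower. Among 7 CDK inhibitors 2 were higher and none lower, CDKN1A at 0.82 ± 0.08 and CDKN2B at 0.60 ± 0.10.

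With the trends of length and GC content removed, 21 members were lower and 4 higher, the calls of MCM2, MCM5, LIG1, RFC1 and RPA2 were lost, and GMNN, PRIM1 and RFC4 were called lower. With the t distribution 4 members were lower and none higher. The 4 were POLE, POLD1, CDT1 and CHAF1A. No share of all genes was counted under these settings, so the losses are not particular to the members.

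Astragaloside IV, with any vehicle it brought, was examined on top of the chemokine by setting SDF1_AS4 against SDF1. No replication gene was called in either direction, where 0.16% of all 18133 genes tested were lower and 0.199% higher. The median of the members in the authors' deposited table was -0.09, against 0.01 over all genes tested, and 30 of 43 values were below 0 (69.8%), where 49.0% of all genes were. By the same DESeq2 values at an unadjusted p under 0.05, 11 members were lower and 2 higher, against 8.53% and 7.85% of all genes. Of the 11946 genes with an implied standard error up to 0.3, 1516 were lower and 1367 higher by that measure, and 51.4% were below 0. Among the members, the extreme values were as follows. The lowest were RFC1 at -0.34 ± 0.11 (adjusted p = 0.0885), GINS4 at -0.32 ± 0.13 and POLD3 at -0.31 ± 0.13, and the highest were TK1 at 0.21 ± 0.10 and POLD2 at 0.19 ± 0.09. The 95% intervals of all 43 lay within a 1.5-fold change in either direction. The widest reach downward was that of GINS4, to -0.57. With the trends of length and GC content removed the median was -0.14, and still no member was called.

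**Figure D3:**
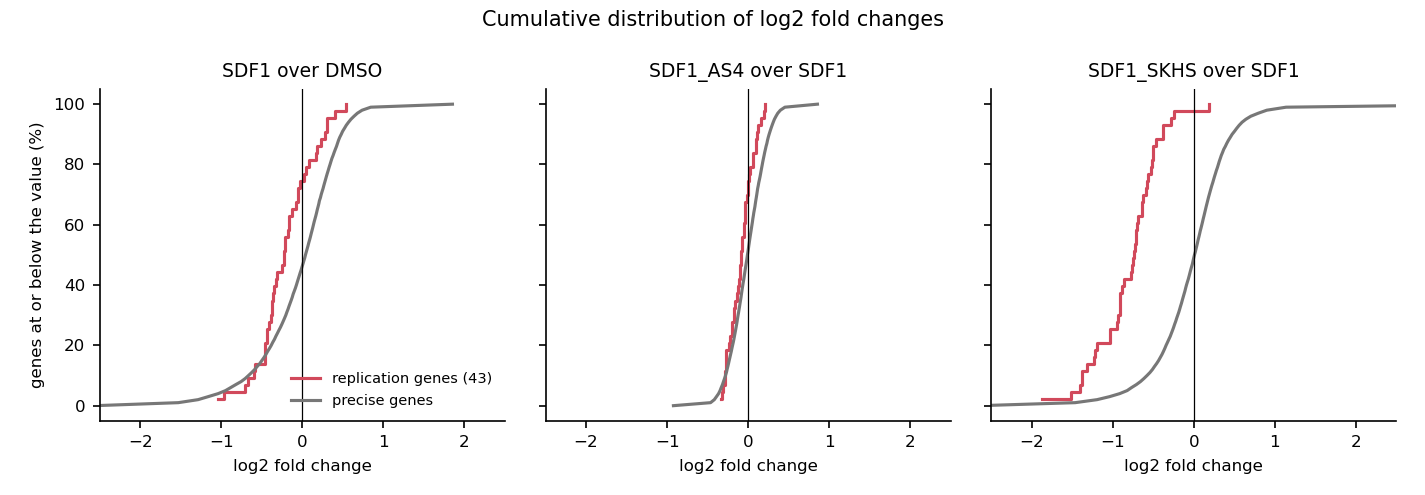
Cumulative share of genes, in percent, against log2 fold change in each deposited comparison, for the 43 replication genes (red) and for all genes whose implied standard error is 0.3 or less (grey). The red curve lies left of the grey one by most for SDF1_SKHS over SDF1, where the medians are -0.74 and 0.01, and by least for SDF1_AS4 over SDF1, where they are -0.09 and -0.01.

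The products were set against each other by subtracting their deposited values, since the authors' deposited table holds no such comparison. The standard error added both implied variances and is an upper bound. In SDF1_SKHS against SDF1_AS4, 35 of the 43 genes were lower and none higher, where 10.4% of 17927 genes were lower and 8.5% higher. Among the 10921 genes with a standard error up to 0.3, 15.7% were lower and 13.2% higher. The members' median was -0.68. The 5 largest differences were those of LIG1 (-1.78 ± 0.14, 3.43-fold lower, adjusted p = 6.2e-33), RRM2 (-1.47 ± 0.12), TK1 (-1.45 ± 0.14), POLA2 (-1.39 ± 0.14) and FEN1 (-1.33 ± 0.13). The 8 genes not called were PRIM1, MCM10, POLD3, RFC4, RPA2, MCM6, POLD2 and RFC1. For RFC1 the difference was 0.05 ± 0.14, with a 95% interval from -0.23 to 0.33, and for POLD2 it was -0.01 ± 0.12, from -0.25 to 0.23. No call in this comparison held with the t distribution, which left 0 members lower. The 2 agents differ in kind, and their doses, 1% of a formula and 10 μM of a compound, cannot be matched.

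Against DMSO, both products were placed by adding their deposited value to that of SDF1 over DMSO. With SKHS 38 of the 43 genes were lower and 1 was higher, where 19.1% of 17936 genes were lower and 18.1% higher. Among the 10933 genes with a standard error up to 0.3, 26.6% were lower and 27.8% higher. The members' median was -1.09, a 2.13-fold lower level, and 26 members were at least 2-fold lower, against 7.98% of all genes. The 5 largest falls were those of LIG1 (-2.22 ± 0.14, 4.66-fold lower, adjusted p = 1.12e-50), POLD1 (-2.00 ± 0.15), POLE (-1.82 ± 0.12), FEN1 (-1.82 ± 0.12) and POLA2 (-1.79 ± 0.14). POLD2 was the gene that was higher, at 0.59 ± 0.13. RPA3 (-0.05 ± 0.16), MCM6 (-0.08 ± 0.12), RFC1 (-0.00 ± 0.14) and RPA2 (-0.15 ± 0.12) did not pass the threshold. Each of these 4 was above 0 in SDF1 over DMSO and below 0 in SDF1_SKHS over SDF1, and both values hold the same SDF1 cultures. TK1 was lower with SKHS than in DMSO (-0.93 ± 0.13).

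With astragaloside IV 22 genes were lower than in DMSO and 3 were higher, where 11.6% of 17895 genes were lower and 10.8% higher. Among the 10855 genes with a standard error up to 0.3, 17.0% were lower and 17.3% higher. The members' median was -0.39, against -0.06 over all genes tested. POLE (-1.13 ± 0.12), POLD1 (-0.97 ± 0.15), POLD3 (-0.90 ± 0.17), MCM10 (-0.74 ± 0.17) and RFC3 (-0.69 ± 0.17) were lowest. RPA3 (0.67 ± 0.17), POLD2 (0.60 ± 0.13) and TK1 (0.52 ± 0.14) were higher. With the t distribution none of the 43 was called for astragaloside IV, in either direction, and POLD2 was no longer called for SKHS.

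**Figure D4:**
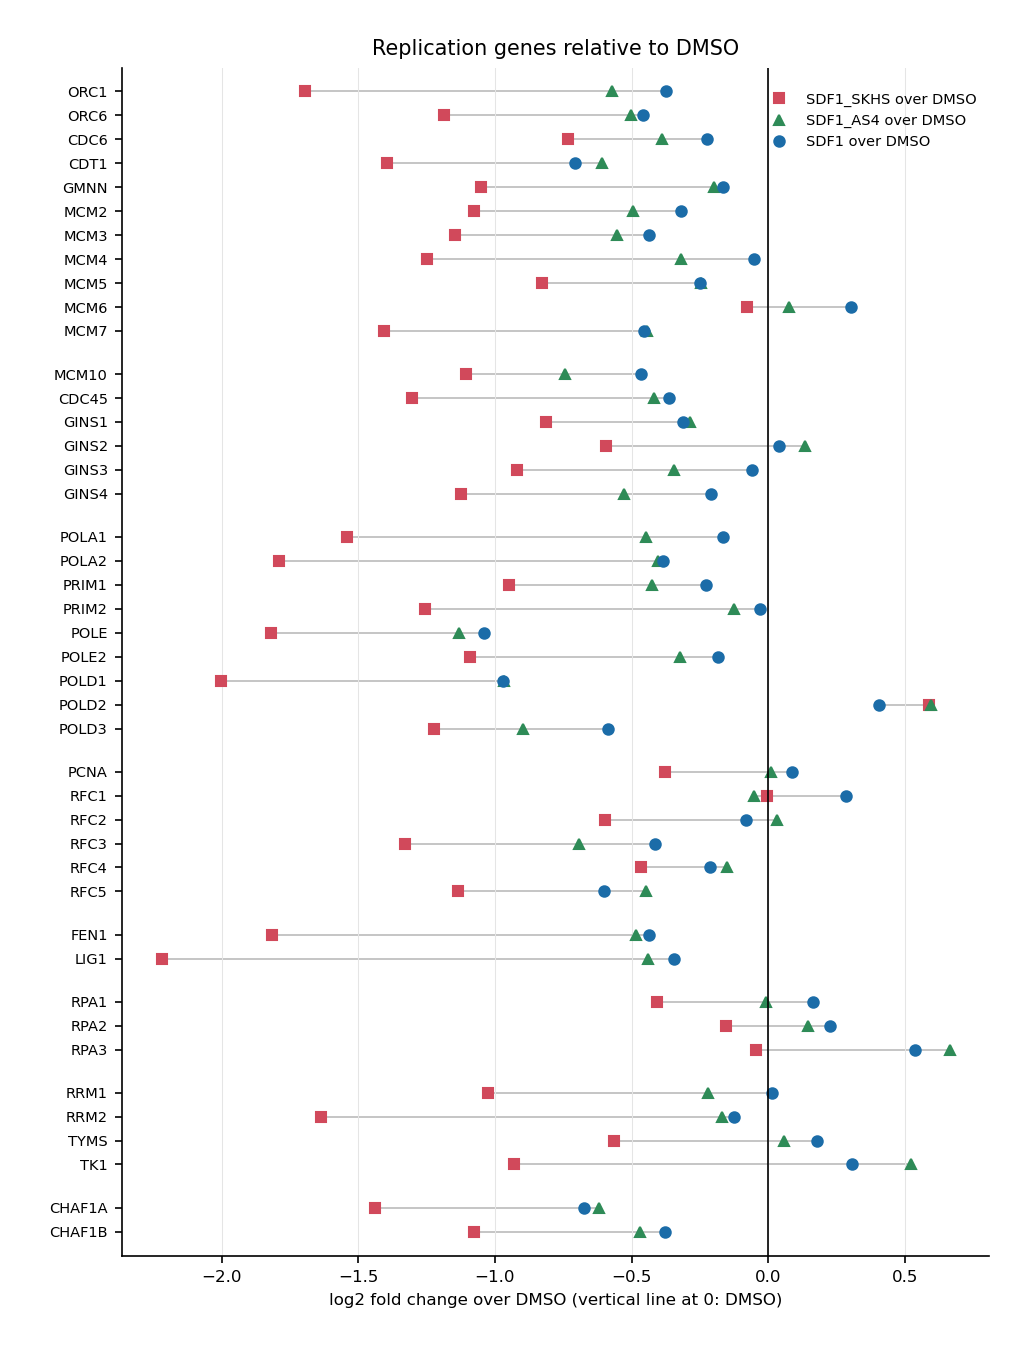
Log2 fold change over DMSO (line at 0) of each of the 43 replication genes in SDF1_SKHS (squares), SDF1_AS4 (triangles) and SDF1 (circles). SDF1 values are those of the authors' deposited table and the others are sums of 2 deposited values, so all 3 share the DMSO and SDF1 cultures. The squares lie left of the other symbols for nearly all genes, down to -2.22 for LIG1, and the triangles lie near the circles.

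How reads of overlapping or copied genes were assigned is not given in the sources used here. Exons of 15 members overlap an exon on the opposite strand in GENCODE 29, LIG1, FEN1 and MCM7 among them. Some members, including POLA2, POLD1, RRM2 and FEN1, overlap an exon of another gene on the same strand. A pseudogene named after the member exists for 8 members, including RRM2, TYMS and PCNA. Values of these genes may hold reads of the neighbour or the copy.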

How the data were processed

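Total RNA of 12 C28/I2 cultures was sequenced. Per the submitters' processing notes, the tools were DESeq2 1.4.5, RSEM 1.2.12 and Bowtie2 2.2.5 and the build GRCh38.p13; the order of steps is not given. The deposited table holds 3 comparisons by the authors, each with a p-value, a q-value and a log2 fold change per gene, per the file headers. Of the 2 groups in a column name, the later one was taken as the numerator, and in all 1576 cases of a gene with a value in 1 comparison and none in another the sign was the one this needs. A gene can count in several pairs of comparisons. The deposited q-value equals a Benjamini-Hochberg adjustment of the p-value and is called adjusted p. Implied standard errors assume a Wald test, and 95% intervals follow from them. Comparisons not in the table were computed by adding or subtracting deposited values, with both variances added and p-values adjusted over all genes. No sample value is in the table, so no replicate could be left out. Transcript length and GC content (longest coding transcript) came from GENCODE 29, in which 95.8% of symbols were found. Promoters came from RefSeq (GRCh38.p14). A planned protein motif search was not run. Members and lists were chosen with earlier results of these data known. All members could be named. Of other lists, up to 4 genes per comparison were named by smallest p. Python 3.11.15, numpy 2.4.6, scipy 1.17.1 and pandas 2.3.3 were used.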

Additional observations from a re-analysis of the deposited data

How the results depend on the processing

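Across the 3 deposited and 3 derived comparisons, 78 of 84 counts and medians recomputed under other settings stayed within 1.5 times the count, or within the members' median standard error, and none changed direction. The 6 that moved were counts under a t distribution with 4 degrees of freedom, whose heavier tails can only remove calls, of members or of other genes. The share of all genes called under the other settings was not counted. SDF1 over DMSO then had 4 members lower and 0 higher, SDF1_SKHS over SDF1_AS4 had 0 lower, SDF1_SKHS over DMSO had 0 higher, and SDF1_AS4 over DMSO had 0 lower and 0 higher. Of 1419 single-gene values of members under these settings, 130 lost a call, 104 of them under the t distribution, 22 gained one, and 0 called values changed sign. At an adjusted p under 0.01, SDF1 over DMSO had 17 lower and 4 higher, and SDF1_SKHS over SDF1 had 41 lower. No paired analysis was possible because the table holds no value per sample, and for the same reason no replicate was left out and no low-count filter or other count tool was run. Depth per sample is unknown, so no limit from counting could be given.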

Other observations

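Some pairs of paralogues had values of opposite sign in the authors' deposited table for SDF1_SKHS over SDF1. RRM2B, the ribonucleotide reductase subunit that p53 induces, rose by 1.09 ± 0.11, while RRM2 fell by 1.51 ± 0.08. The histone chaperone ASF1A rose by 0.62 ± 0.09, while its paralogue ASF1B was at -1.18 ± 0.09. The cyclin E genes were at 0.52 ± 0.12 for CCNE1 and -1.84 ± 0.21 for CCNE2. ASF1A and CCNE1 were chosen after their values were seen. Over DMSO, by adding deposited values, SDF1_SKHS gave 1.73 ± 0.18 for RRM2B, 0.74 ± 0.15 for ASF1A and 0.08 ± 0.18 for CCNE1, of which the last was not called (adjusted p = 0.826).

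The accessory polymerase subunits did not move one way with SDF-1a in the authors' deposited table, and they were looked at after their values were seen. Beside POLE at -1.04 ± 0.08, POLE4 was at 0.67 ± 0.13, POLE3 at 0.21 ± 0.08 and POLE2 at -0.18 ± 0.16, of which POLE2 was not called. Beside POLD1 at -0.97 ± 0.10, POLD4 was at 0.80 ± 0.10 and POLD2 at 0.40 ± 0.10, while POLD3 was at -0.59 ± 0.11. Beside POLA1 at -0.17 ± 0.10, which was not called, POLA2 was at -0.38 ± 0.10.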
